A study of Homo sapiens with 12 samples.

Results

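The 10 genes described here encode integrin subunits: the alpha chains ITGA2, ITGA3, ITGA5 and ITGAV and the beta chains ITGB1, ITGB3, ITGB4, ITGB5, ITGB6 and ITGB8. They were taken by gene symbol from a deposited expression table of 20979 entries, which holds 26 integrin subunit symbols in all. Each of the 10 symbols stood on 1 line of the table and all 10 passed the filter on low values (FPKM above 1 in at least 3 libraries). FPKM is the number of fragments scaled to transcript length and library depth, so it can be compared between genes.

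PolyA RNA was sequenced in 12 libraries, 1 for each of 4 siRNAs in each of 3 established human kidney lines. A704 and CAKI-1 are labelled as cancer lines and HK2 as normal, and all are labelled epithelial. Every library came from cells transfected with an Ambion siRNA at 25 nM, the controls with a control siRNA, and RNA was taken at 48 h. The other groups received a LATS siRNA, which the labels do not assign to LATS1 or LATS2, or 1 of 2 siRNAs against PTPN14. The numbers of the PTPN14 siRNAs are swapped between sample titles and descriptions, and PTPN14-1 and PTPN14-2 follow the titles. A704, HK2 and CAKI-1 were grown in different media, so line and medium cannot be told apart, and nothing in the labels says that libraries came from separate experiments.

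Integrins are receptors made of 1 alpha and 1 beta chain that join the cytoskeleton to the extracellular matrix or to other cells. The beta 1 chain pairs with many alpha chains and gives receptors for collagen, laminin and fibronectin, while the alpha V chain pairs with several beta chains to bind ligands that carry the RGD motif. The beta 6 and beta 8 partners of alpha V are known for binding and activating latent TGF-beta, and the beta 4 chain, with alpha 6, anchors hemidesmosomes to laminin. PTPN14 and the LATS kinases restrain YAP1, the coactivator at the end of the Hippo pathway.

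The siRNA targets were low where their labels said. PTPN14 stood at 21.4 to 28.7% of the same line's control with PTPN14-1 and at 31.2 to 37.5% with PTPN14-2. LATS1 stood at 22.5 to 30.7% with the LATS siRNA and LATS2 at 98.2 to 122%. An effective depth of 17.0 to 23.3 M reads per library was estimated from whole-read steps in the low values, and the RNA integrity number was 9.6 for the A704 control and 10 otherwise. KRT8, an epithelial keratin, averaged 380 FPKM for A704, 142 for HK2 and 222 for CAKI-1. CDH1, the epithelial cadherin, averaged 18.4 FPKM in A704 but 0.0475 and 0.13 in HK2 and CAKI-1. The summed level of 6 leukocyte markers was between 0.15 and 2.82 FPKM and that of 3 platelet markers at most 1.47. The 5 fibroblast markers summed to 53.7 to 82.3 FPKM in HK2, mostly LUM, and to at most 1.81 in the other lines. Their part in the differences between lines was not tested.

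ITGB1 was the most abundant of the 10 transcripts, with a mean of 533 FPKM over the 12 libraries, followed by ITGA3 at 198 and ITGAV at 85.0. ITGB5 averaged 47.9 FPKM, ITGA5 40.3, ITGB3 32.2, ITGB8 19.8, ITGB6 11.96, ITGB4 9.63 and ITGA2 3.27. ITGB5 varied least, from 40.1 to 58.8 FPKM, and ITGB6 most, from 0.13 to 30.2 FPKM. The ranges of neighbours in this order overlapped, except those of ITGB1 and ITGA3.

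**Figure D1:**
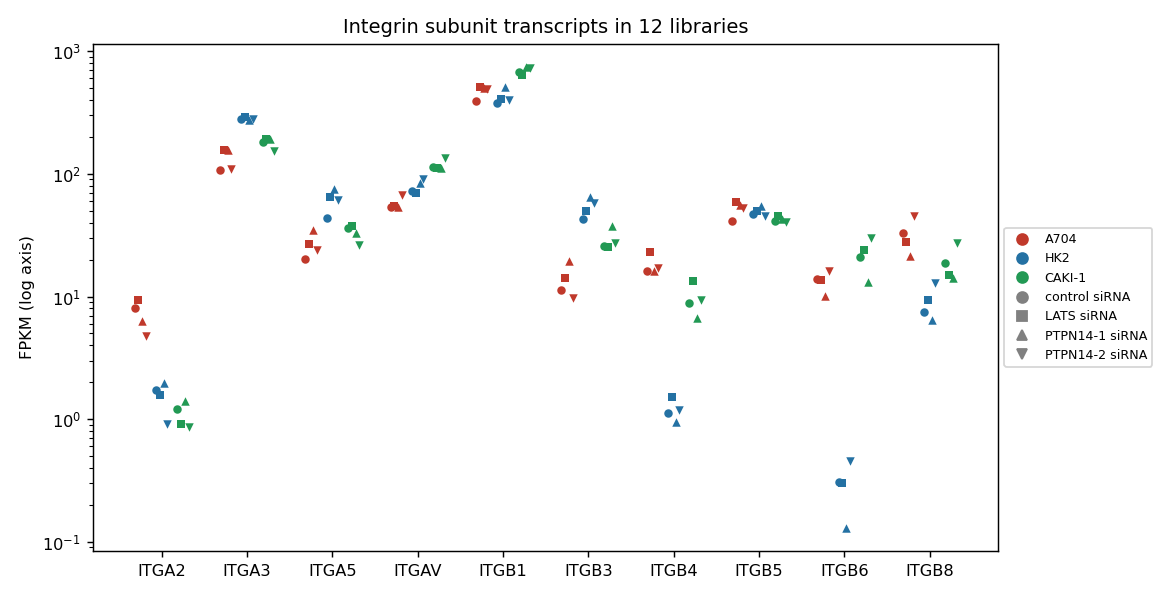
FPKM (log axis) of the 10 integrin subunit transcripts in each of the 12 libraries; colour gives the line and shape the siRNA, and each point is 1 library. ITGB1 lies above 379 FPKM in every library, and ITGB6 lies below 0.5 FPKM in HK2 and above 10 FPKM in A704 and CAKI-1.

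The comparisons asked how integrin transcripts differed between lines and how each siRNA moved them against the control of the same line. Against control, PTPN14-1 raised ITGB3 and lowered ITGB8, and PTPN14-2 raised ITGB8. No member passed with the LATS siRNA. The clearest contrast lay between the 2 PTPN14 siRNAs: ITGB8 and ITGB6 were lower and ITGB3 was higher with PTPN14-1 than with PTPN14-2. Tests were made on log2(FPKM + 1) with limma over 12276 genes, with the line as a block, 3 libraries against 3, and Benjamini-Hochberg adjusted p under 0.05.

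With PTPN14-1, 2 of 10 members passed against control, where 5.87% of all genes did. They were 1 that rose, as 2.39% of all genes did, and 1 that fell, as 3.47% did. With PTPN14-2, 1 of 10 passed, upward, against 1.35% of all genes (0.448% higher and 0.904% lower). With the LATS siRNA, 0 of 10 passed against 0.122% of all genes, and 2 members and 1381 genes had an unadjusted p under 0.05. Between PTPN14-1 and PTPN14-2, 3 of 10 members differed, where 11.7% of all genes did: 1 was higher (5.52% of all genes) and 2 were lower (6.18%) with PTPN14-1. The median log2 change of the members was 0.13 with PTPN14-1, 0.10 with PTPN14-2 and 0.15 with the LATS siRNA. Over all genes tested the medians lay between -0.01 and 0.01 in each of these comparisons.

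With both PTPN14 siRNAs taken as 1 treatment, 6 libraries against 3, 0 of 10 members passed in the limma model, against 0.0244% of all genes. There 1 member, ITGB1, and 1250 genes had an unadjusted p under 0.05. ITGB8 then stood at a log2 change of 0.09 (SE 0.26) and ITGB6 at -0.07 (SE 0.21), since the 2 siRNAs gave values on opposite sides of the control. The test of whether responses differ between lines found 0 of 10 members (0% of all genes; limma, 119 genes at an unadjusted p under 0.05, none of them a member), with 3 residual degrees of freedom.

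**Figure D2:**
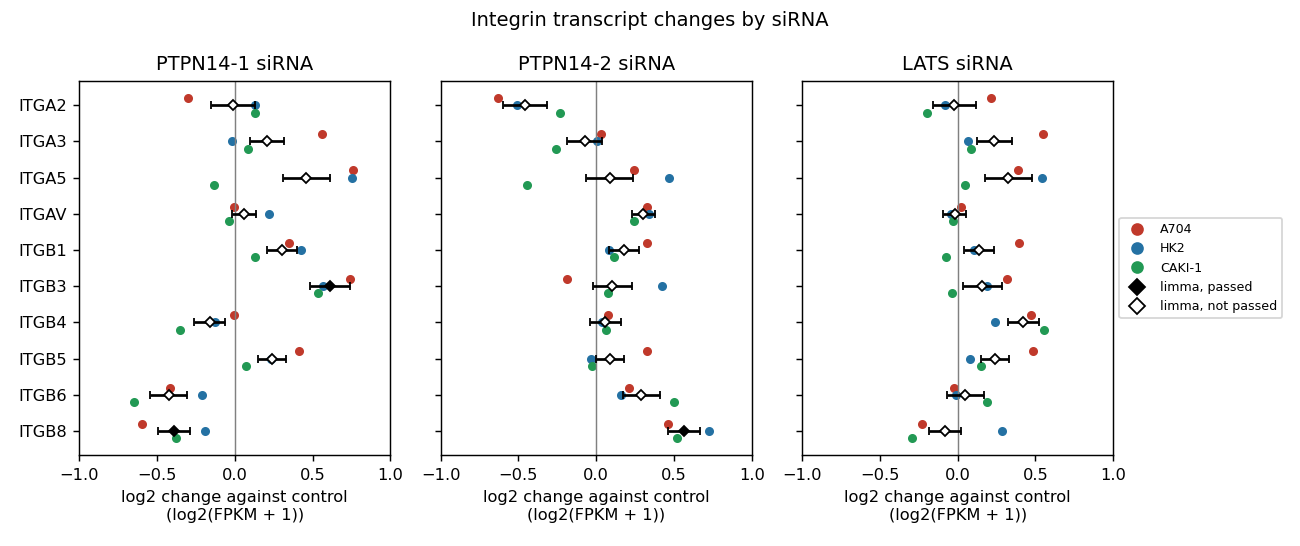
log2 change of each member against the control siRNA of the same line (log2(FPKM + 1), x axis), 1 panel per siRNA; coloured points are the 3 lines, diamonds the limma estimates and bars ± 1 SE. Filled diamonds passed: ITGB3 at 0.61 and ITGB8 at -0.39 with PTPN14-1, and ITGB8 at 0.57 with PTPN14-2.

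Between lines most members differed, as most genes did. A704 and HK2 differed at 8 of 10 members (4 higher and 4 lower in A704), where 84.6% of all genes passed (40.6% higher, 44% lower). CAKI-1 and HK2 differed at 9 of 10 (5 higher and 4 lower in CAKI-1), where 81.7% of all genes passed (40.4% higher, 41.3% lower). A704 and CAKI-1 differed at 10 of 10 (4 higher and 6 lower in A704), where 81.1% of all genes passed (39.3% higher, 41.8% lower). These shares are near those of all genes, so the counts say nothing particular to integrins. Line means below are over 4 libraries, 1 per siRNA, so their SD holds the siRNA effects as well.

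Among the partners of alpha V, ITGB8 showed the largest difference between the PTPN14 siRNAs. The ITGB8 gene lies on chr7:20330702-20415754, plus strand (GRCh38, GENCODE v29), and its product presents latent TGF-beta to neighbouring cells. In A704, ITGB8 stood at 32.7 FPKM with control, 27.8 with LATS, 21.3 with PTPN14-1 and 45.3 with PTPN14-2. In HK2, ITGB8 stood at 7.47, 9.30, 6.42 and 13.0 FPKM in the same order. In CAKI-1, ITGB8 stood at 18.6, 15.0, 14.1 and 27.1 FPKM. PTPN14-1 gave the lowest and PTPN14-2 the highest ITGB8 level of the 4 siRNAs in each line, although the siRNA groups overlapped when lines were pooled.

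ITGB8 was at 65.0, 85.9 and 75.6% of control with PTPN14-1 in A704, HK2 and CAKI-1, and at 139, 174 and 146% with PTPN14-2. It fell with PTPN14-1 (log2 change -0.39, SE 0.10, limma adjusted p = 0.0436) and rose with PTPN14-2 (0.57, SE 0.10, limma adjusted p = 0.0180). The direct contrast was -0.96 (SE 0.10, limma adjusted p = 1.43e-04), and the PTPN14-1 level was 46.9, 49.4 and 52.0% of the PTPN14-2 level in A704, HK2 and CAKI-1. That contrast passed whichever of the 12 libraries was left out, with adjusted p up to 0.00169. The calls against control were weaker: the fall with PTPN14-1 passed in 3 of these 12 fits (adjusted p up to 0.187), namely without HK2 LATS, CAKI-1 LATS or the HK2 control. The rise with PTPN14-2 passed in 7 of 12 (adjusted p up to 0.119) and was lost without any of the PTPN14-2 libraries or the HK2 or CAKI-1 control. Neither call held when genes with low values were kept in the test (adjusted p = 0.0967 and 0.0711), and the fall was at 0.0507 without trend or robust moderation.

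ITGB6, the other TGF-beta activating partner, had the same siRNAs as ITGB8 at its lowest and highest level in each line. The order of control and LATS between them differed from that of ITGB8 in HK2 and CAKI-1. The gene lies on chr2:160099666-160200313, minus strand, and its product is known mainly from epithelial cells. In A704, ITGB6 stood at 13.8 FPKM with control, 13.6 with LATS, 10.1 with PTPN14-1 and 16.2 with PTPN14-2. In CAKI-1, ITGB6 stood at 21.1, 24.1, 13.1 and 30.2 FPKM in the same order. In HK2, ITGB6 was listed at 0.31, 0.30, 0.13 and 0.46 FPKM. PTPN14-1 again gave the lowest and PTPN14-2 the highest level in each line, and the HK2 values lay far under those of the other lines.

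At the estimated depth the HK2 values of ITGB6 stand for about 27.8, 25.4, 10.3 and 44.9 reads, so the HK2 share of the response rests on few reads. ITGB6 was lower with PTPN14-1 than with PTPN14-2 (log2 difference -0.71, SE 0.12, limma adjusted p = 0.00251), whichever of the 12 libraries was left out (adjusted p up to 0.0182). The PTPN14-1 level was 62.6, 28.3 and 43.4% of the PTPN14-2 level in A704, HK2 and CAKI-1. Against control neither siRNA passed: the log2 change was -0.42 (SE 0.12, limma adjusted p = 0.0540) with PTPN14-1 and 0.29 (SE 0.12, adjusted p = 0.274) with PTPN14-2. With a pseudocount of 0.1, which weights the low HK2 values more, the PTPN14-1 change was -0.65 and passed (limma adjusted p = 0.00801), and it passed after rescaling to TPM (-0.55, adjusted p = 0.0102). It also passed without HK2 PTPN14-1 (-0.56, limma adjusted p = 0.0351) or CAKI-1 PTPN14-2 (-0.42, 0.0482).

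Between lines, ITGB6 averaged 0.300 ± 0.135 FPKM (SD, n = 4) in HK2, 13.4 ± 2.50 in A704 and 22.1 ± 7.11 in CAKI-1. CAKI-1 was higher than HK2 by 4.10 (SE 0.10, limma adjusted p = 6.74e-13) and A704 by 3.46 (SE 0.10, adjusted p = 2.39e-12) on the log2(FPKM + 1) scale. ITGB8 averaged 31.8 ± 10.2 FPKM (SD, n = 4) for A704, 18.7 ± 5.94 for CAKI-1 and 9.04 ± 2.89 for HK2. The HK2 ranges of both genes lay under those of the other lines, while A704 and CAKI-1 overlapped for both. ITGB6 was therefore highest in CAKI-1 and ITGB8 in A704, by limma with adjusted p = 6.30e-05 and 4.80e-06 between those lines.

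The sequences just upstream of ITGB6 and ITGB8, whose transcripts moved together, and of ITGB1 are shown because RefSeq promoter windows (GRCh38.p14) were searched for motifs of TEAD, the DNA-binding partner of YAP1, and AP-1. Each is given 5′ to 3′ on the gene's strand, without the bases that GENCODE v29 marks as exons, and capitals mark a TEAD match. The ITGB1 window precedes a RefSeq start and lies inside the GENCODE span of the gene, chr10:32900319-33005792, not upstream of it.
ITGB6, chr2:160200314-160200522, minus strand: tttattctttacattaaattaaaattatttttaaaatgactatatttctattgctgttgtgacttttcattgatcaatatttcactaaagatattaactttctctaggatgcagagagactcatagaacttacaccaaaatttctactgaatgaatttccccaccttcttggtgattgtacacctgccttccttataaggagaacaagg
ITGB8, chr7:20330650-20330701, plus strand: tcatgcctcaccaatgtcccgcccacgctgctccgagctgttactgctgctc
ITGB1, chr10:32958233-32958480, minus strand: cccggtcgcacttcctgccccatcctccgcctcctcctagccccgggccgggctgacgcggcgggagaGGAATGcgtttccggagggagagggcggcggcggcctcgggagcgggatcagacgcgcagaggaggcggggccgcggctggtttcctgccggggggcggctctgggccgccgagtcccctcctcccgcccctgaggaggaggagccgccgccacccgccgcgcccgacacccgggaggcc

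The TEAD motif searched was CATTCC, read as GGAATG on the other strand, and the AP-1 motif was TGANTCA on both strands; the end of a match of one can overlap a match of the other. Windows of 250 bases before the start were found for 7 of the 10 members, 11 windows in all. TEAD letters occurred in 2 of the 11, 1 of ITGB1 and 1 of ITGA5, where the match lay inside an annotated exon, against 11.9% of 35116 windows of the same length. AP-1 letters occurred in 0 of the 11, against 6.57% of all windows. The windows of ITGB6 and ITGB8 held neither motif, which says only that these letters are not in these stretches.

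ITGB3, the beta 3 chain that binds vitronectin and fibrinogen with alpha V, moved the other way. The gene lies on chr17:47253846-47311816, plus strand. In A704, ITGB3 stood at 11.2 FPKM with control, 14.2 with LATS, 19.4 with PTPN14-1 and 9.73 with PTPN14-2. In HK2, ITGB3 stood at 43.2, 49.4, 64.6 and 58.3 FPKM in the same order. In CAKI-1, ITGB3 stood at 25.8, 25.2, 37.8 and 27.2 FPKM. PTPN14-1 gave the highest ITGB3 level in each line, and PTPN14-2 lay below control in A704 and above it in HK2 and CAKI-1.

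ITGB3 reached 173, 149 and 147% of control with PTPN14-1 in A704, HK2 and CAKI-1, a rise of 0.61 (log2, SE 0.13, limma adjusted p = 0.0152). The rise passed in 10 of the 12 fits that left out 1 library and was lost without the A704 control (adjusted p = 0.0573) or the HK2 control (0.0840), and with low genes kept in the test (0.0562). It was also lost without all 4 libraries of HK2 (limma adjusted p = 0.119) or of CAKI-1 (0.104). With PTPN14-2 the log2 change was 0.10 (SE 0.13, limma adjusted p = 0.753). The direct contrast passed (0.51 higher with PTPN14-1, SE 0.13, limma adjusted p = 0.0216), but not without A704 PTPN14-2, where it was 0.32, nor without A704 PTPN14-1, CAKI-1 PTPN14-1 or CAKI-1 PTPN14-2 (adjusted p up to 0.0881). With low genes kept in the test its adjusted p was 0.0641. The contrast was also lost without all 4 libraries of A704 (0.30, limma adjusted p = 0.142) or of CAKI-1 (0.53, adjusted p = 0.119). Between lines, ITGB3 averaged 53.9 ± 9.44 FPKM (SD, n = 4) in HK2, 29.02 ± 5.94 in CAKI-1 and 13.6 ± 4.26 in A704, with no overlap. The line order was thus the reverse of that of ITGB8, with each step past the limma threshold (adjusted p up to 6.32e-06). An annotated protein-coding gene on the same strand, AC068234.1, shares exon bases with ITGB3 and is not in the table, so its reads cannot be told apart from those of ITGB3.

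**Figure D3:**
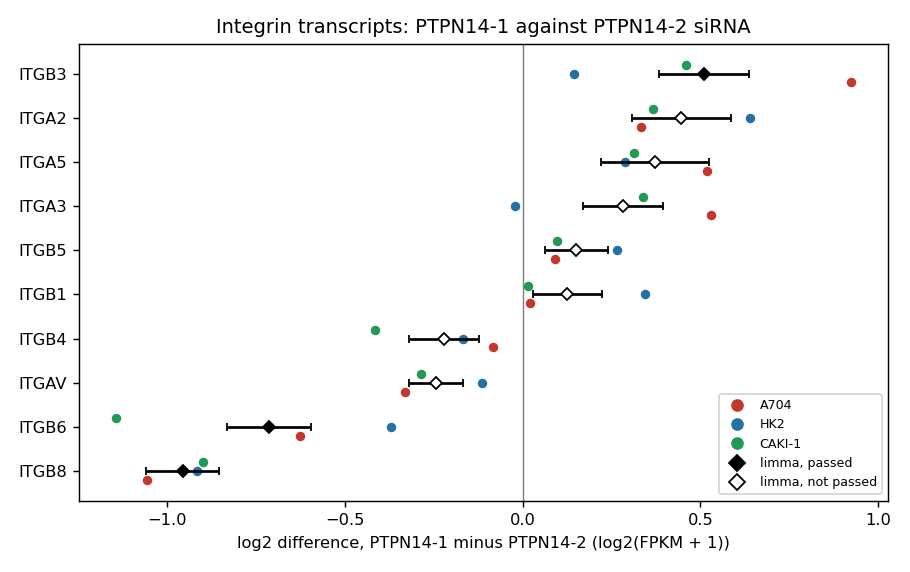
log2 difference of each member between PTPN14-1 and PTPN14-2 (PTPN14-1 minus PTPN14-2, log2(FPKM + 1), x axis); coloured points are the 3 lines, diamonds the limma estimates and bars ± 1 SE. ITGB8 (-0.96) and ITGB6 (-0.71) lie below 0 in all 3 lines and ITGB3 (0.51) above 0, and these passed.

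ITGAV encodes the alpha V chain itself, on chr2:186590065-186680901, plus strand. In A704, ITGAV stood at 53.6 FPKM with control, 54.4 with LATS, 53.5 with PTPN14-1 and 67.6 with PTPN14-2. In HK2, ITGAV stood at 72.2, 70.0, 84.3 and 91.4 FPKM in the same order. In CAKI-1, ITGAV stood at 114, 112, 111 and 136 FPKM. PTPN14-2 gave the highest ITGAV level in each line, at 126, 127 and 119% of control in A704, HK2 and CAKI-1. This did not pass (log2 change 0.30, SE 0.08, limma adjusted p = 0.0775), nor did the contrast with PTPN14-1 (-0.24, SE 0.08, adjusted p = 0.0542), which passed after rescaling to TPM (0.0225) or quantile normalisation (0.0306) and without HK2 PTPN14-1 (0.0309). The line means did not overlap in their ranges, at 118 ± 11.7 FPKM (SD, n = 4) in CAKI-1, 79.4 ± 10.1 in HK2 and 57.3 ± 6.90 in A704.

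ITGB5, the beta 5 chain that binds vitronectin with alpha V, was the steadiest member. It lies on chr3:124761948-124901418, minus strand. Its levels with control, LATS, PTPN14-1 and PTPN14-2 were 41.6, 58.8, 55.8 and 52.4 FPKM in A704. They were 46.7, 49.4, 55.1 and 45.7 FPKM in HK2 and 40.9, 45.6, 43.0 and 40.1 FPKM in CAKI-1. The A704 control was the lowest A704 library, while in HK2 and CAKI-1 the PTPN14-2 library was the lowest. The A704 control is also the library with the lower RNA integrity number, and its part in the A704 values was not tested. No siRNA passed, at log2 changes of 0.24 (SE 0.09, limma adjusted p = 0.132) with PTPN14-1 and 0.24 (SE 0.09, adjusted p = 0.354) with LATS. A704 and HK2 were at 0.07 (SE 0.08, limma adjusted p = 0.380), and the lower level of CAKI-1 against HK2 (-0.21, adjusted p = 0.0228) was lost without the HK2 control, HK2 PTPN14-1, CAKI-1 PTPN14-1 or CAKI-1 PTPN14-2 (adjusted p up to 0.0900). After rescaling to TPM it was -0.36 (limma adjusted p = 6.56e-04).

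These values set how the transcripts of the alpha V partners were divided. ITGB6 and ITGB8 together made up 46.8% of the summed FPKM of ITGB3, ITGB5, ITGB6 and ITGB8 in the A704 control, 37.3% in the CAKI-1 control and 7.96% in the HK2 control. In the PTPN14-1 libraries of A704, CAKI-1 and HK2 that share was 29.4, 25.2 and 5.19%. In the PTPN14-2 libraries it was 49.8, 46.0 and 11.4% in the same order, and with LATS 36.2, 35.6 and 8.85%. The share was thus lowest with PTPN14-1 and highest with PTPN14-2 in each line; it was not tested, since it is built from values already tested above.

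The 4 partners summed to 1.83 to 2.10 times the FPKM of ITGAV in A704, to 1.29 to 1.55 times in HK2 and to 0.920 to 0.984 times in CAKI-1. These ratios of transcript levels did not overlap between lines. They say nothing of how many chains were paired at the surface.

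**Figure D4:**
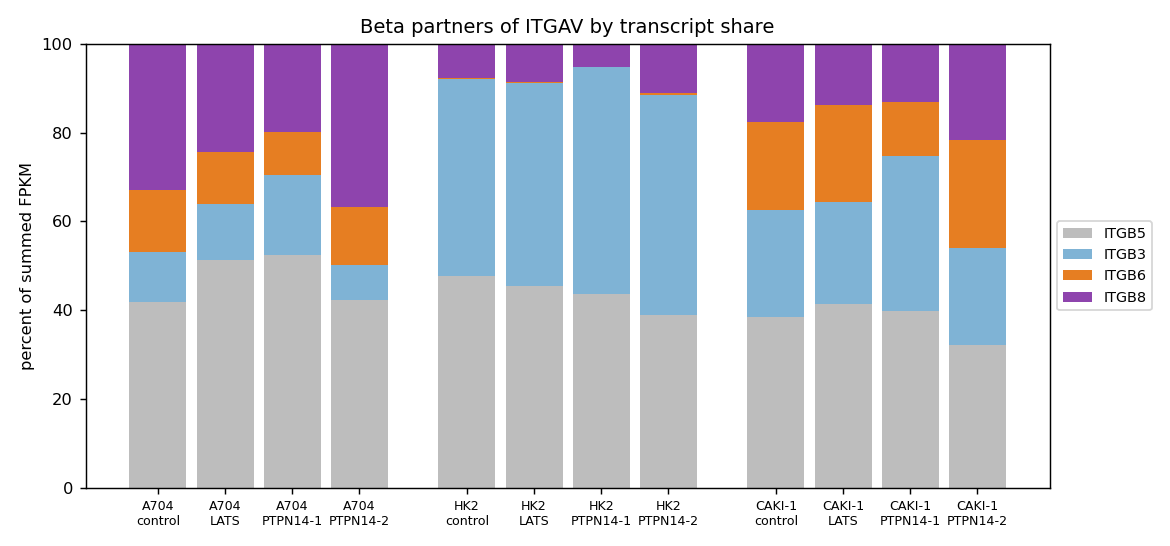
Share (percent of summed FPKM, y axis) of ITGB3, ITGB5, ITGB6 and ITGB8, the beta partners of ITGAV, in each of the 12 libraries; each bar is 1 library and sums to 100%. The ITGB6 and ITGB8 parts together are smallest with PTPN14-1 and largest with PTPN14-2 in each line, and are small in all 4 HK2 libraries.

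ITGB1, the shared beta chain of the collagen, laminin and fibronectin receptors, lies on chr10:32900319-33005792, minus strand. In A704, ITGB1 stood at 390.2 FPKM with control, 513 with LATS, 497 with PTPN14-1 and 491 with PTPN14-2. In HK2, ITGB1 stood at 379, 407, 511 and 402 FPKM in the same order. In CAKI-1, ITGB1 stood at 679.6, 644, 743 and 735 FPKM. All 6 PTPN14 libraries lay above the control of their line, but the groups overlapped across lines. The log2 change was 0.30 with PTPN14-1 (SE 0.10, limma adjusted p = 0.0863) and 0.18 with PTPN14-2 (SE 0.10, adjusted p = 0.419). CAKI-1, at 700.4 ± 47.0 FPKM (SD, n = 4), did not overlap with A704 (473 ± 55.7) or HK2 (425 ± 58.6), while A704 and HK2 overlapped and did not pass (0.15, SE 0.08, limma adjusted p = 0.0994). That contrast passed after quantile normalisation (0.33, limma adjusted p = 0.00228) and without the A704 control (0.0447) or HK2 PTPN14-1 (0.0399). Quantile normalisation also moved A704 against CAKI-1 from -0.57 to -0.36, which passed either way.

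The alpha partners of beta 1 differed widely in level. ITGA3, part of a laminin receptor, lies on chr17:50055968-50090481, plus strand. In A704, ITGA3 stood at 107 FPKM with control, 157 with LATS, 158 with PTPN14-1 and 109 with PTPN14-2. In HK2, ITGA3 stood at 278, 291, 274 and 278 FPKM in the same order. In CAKI-1, ITGA3 stood at 182, 194, 193 and 152 FPKM. The A704 libraries split into a higher pair, LATS and PTPN14-1, and a lower pair, while the HK2 libraries hardly varied. No siRNA passed for ITGA3, with log2 changes of 0.23 (SE 0.11, limma adjusted p = 0.454) with LATS, 0.21 (adjusted p = 0.298) with PTPN14-1 and -0.07 (adjusted p = 0.804) with PTPN14-2. HK2, at 280.4 ± 7.51 FPKM (SD, n = 4), lay above CAKI-1 (180.4 ± 19.4) and A704 (133 ± 28.5) without overlap, and those lines overlapped each other.

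ITGA5, the alpha chain of the main fibronectin receptor, lies on chr12:54395261-54419460, minus strand. In A704, ITGA5 stood at 20.2 FPKM with control, 26.8 with LATS, 35.0 with PTPN14-1 and 24.1 with PTPN14-2. In HK2, ITGA5 stood at 43.8, 64.3, 74.7 and 61.0 FPKM in the same order. In CAKI-1, ITGA5 stood at 36.4, 37.6, 33.1 and 26.4 FPKM. Both PTPN14 siRNAs gave values above control in A704 and HK2 and below it in CAKI-1. Over the 3 lines PTPN14-1 did not pass (log2 change 0.46, SE 0.15, limma adjusted p = 0.0972). It did without the CAKI-1 control (0.70, limma adjusted p = 0.0156), without CAKI-1 PTPN14-1 (0.62, adjusted p = 0.0445) and without the 4 CAKI-1 libraries (0.76, adjusted p = 0.0139). ITGA5 averaged 61.0 ± 12.8 FPKM (SD, n = 4) in HK2, above CAKI-1 (33.4 ± 5.02) and A704 (26.5 ± 6.24) without overlap. The difference between CAKI-1 and A704 (-0.33 for A704, SE 0.13, limma adjusted p = 0.0330) was lost without any of the A704 control, A704 LATS, A704 PTPN14-2, CAKI-1 control and CAKI-1 LATS libraries (adjusted p up to 0.165). It was also lost in limma after rescaling to TPM (-0.21, adjusted p = 0.150) and with low genes kept in the test (adjusted p = 0.0630). The contrast between the PTPN14 siRNAs (0.37, SE 0.15, limma adjusted p = 0.134) passed without the CAKI-1 control (0.0406).

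ITGA2, the alpha chain of a collagen receptor, was the lowest member and lies on chr5:52989326-53094779, plus strand. In A704, ITGA2 stood at 8.0 FPKM with control, 9.45 with LATS, 6.31 with PTPN14-1 and 4.80 with PTPN14-2. In HK2, ITGA2 stood at 1.73, 1.58, 1.99 and 0.92 FPKM in the same order. In CAKI-1, ITGA2 stood at 1.20, 0.92, 1.41 and 0.87 FPKM. PTPN14-2 gave the lowest ITGA2 level in each line, at 60.0, 53.2 and 72.5% of control in A704, HK2 and CAKI-1. It did not pass (log2 change -0.46, SE 0.14, limma adjusted p = 0.137). The contrast between the PTPN14 siRNAs (0.45 higher with PTPN14-1, SE 0.14, limma adjusted p = 0.0568) passed with a pseudocount of 0.1 (0.69, adjusted p = 0.0312) and without A704 LATS, CAKI-1 LATS or A704 PTPN14-1 (adjusted p from 0.0199 to 0.0371). A704, at 7.14 ± 2.02 FPKM (SD, n = 4), was 4.59 times the HK2 mean and 6.49 times the CAKI-1 mean without overlap. CAKI-1 and HK2 overlapped and did not pass (-0.27, SE 0.12, limma adjusted p = 0.0529), except without A704 LATS, A704 PTPN14-1, CAKI-1 PTPN14-1 or CAKI-1 PTPN14-2 (adjusted p from 0.0185 to 0.0475). It also passed in limma with a pseudocount of 0.1 (-0.44, adjusted p = 0.0229) and after rescaling to TPM (-0.48, adjusted p = 0.00809).

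ITGB1 was set against the summed FPKM of alpha chains in the table, ITGA1 to ITGA11 and ITGAV, members or not. The ratio of ITGB1 to this sum was 1.68 to 1.96 in A704 and 1.77 to 2.18 in CAKI-1. In HK2 the ratio was 0.904 to 1.13. HK2 did not overlap with the other lines in this ratio, and its ITGA3 and ITGA5 levels were the highest of the 3 lines.

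ITGB4, the hemidesmosome chain, lies on chr17:75721328-75757818, plus strand. In A704, ITGB4 stood at 16.2 FPKM with control, 22.9 with LATS, 16.1 with PTPN14-1 and 17.1 with PTPN14-2. In CAKI-1, ITGB4 stood at 8.87, 13.5, 6.73 and 9.30 FPKM in the same order. In HK2, ITGB4 stood at 1.13, 1.52, 0.95 and 1.19 FPKM. The LATS library was the highest and PTPN14-1 the lowest in each line. The log2 change with LATS siRNA was 0.42 (SE 0.10), the largest of any member with that siRNA, higher in 3 of 3 lines, but it did not pass (limma adjusted p = 0.165, and from 0.117 to 0.589 with 1 library left out). With PTPN14-1 it was -0.16 (SE 0.10, limma adjusted p = 0.354). A704, at 18.1 ± 3.23 FPKM (SD, n = 4), was 15.1 times and CAKI-1, at 9.60 ± 2.83, was 8.02 times the HK2 mean of 1.20 ± 0.238, without overlap between any of the lines.

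Of the other 16 integrin subunit symbols in the table, 9 passed the filter. ITGA1, the alpha chain of another collagen receptor, was the 1 that passed a siRNA contrast. Of all genes, 2.39% rose with PTPN14-1 against control and 5.52% were higher with PTPN14-1 than with PTPN14-2. ITGA1 stood at 19.6, 23.8, 26.9 and 26.8 FPKM with control, LATS, PTPN14-1 and PTPN14-2 in A704. It stood at 1.54, 1.73, 3.42 and 1.70 FPKM in HK2 and at 2.68, 3.31, 5.19 and 3.37 FPKM in CAKI-1. PTPN14-1 gave the highest level in each line, although in A704 the PTPN14-2 level was close to it. ITGA1 rose with PTPN14-1 (log2 change 0.66, SE 0.11, limma adjusted p = 0.00557) and was higher than with PTPN14-2 (0.41, SE 0.11, adjusted p = 0.0315). The rise passed whichever library was left out (adjusted p up to 0.0360), but not without all 4 libraries of HK2 (0.0992) or of CAKI-1 (0.0892). The contrast was lost without the HK2 or CAKI-1 library of either PTPN14 siRNA (adjusted p up to 0.148) and with low genes kept in the test (0.0731).

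ITGA6, the partner of beta 4, averaged 14.6 ± 0.902 FPKM (SD, n = 4) for A704, 3.21 ± 0.641 for CAKI-1 and 1.17 ± 0.339 for HK2, the same line order as ITGB4. ITGA4, whose product binds VCAM1 and fibronectin, was listed at 0.01 to 0.04 FPKM in A704 but at 5.48 to 7.46 in HK2 and 11.7 to 14.3 in CAKI-1. The leukocyte integrin chains ITGAM, ITGAX and ITGB7 averaged 1.77, 3.83 and 1.24 FPKM in A704, above 1 in all 4 A704 libraries and in none of the others. ITGB2, the beta chain that pairs with ITGAM and ITGAX, averaged 0.835 FPKM in A704, 1.86 for HK2 and 0.103 for CAKI-1, and lay above 1 in all 4 HK2 libraries and in 1 of A704. The 6 leukocyte markers summed to 0.33 to 0.52 FPKM in A704. ITGAE and ITGA7 also passed the filter, at 2.66 to 5.46 and 0.69 to 5.53 FPKM over the libraries. The 7 symbols that did not pass the filter reached at most 0.51 FPKM in any library.

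**Figure D5:**
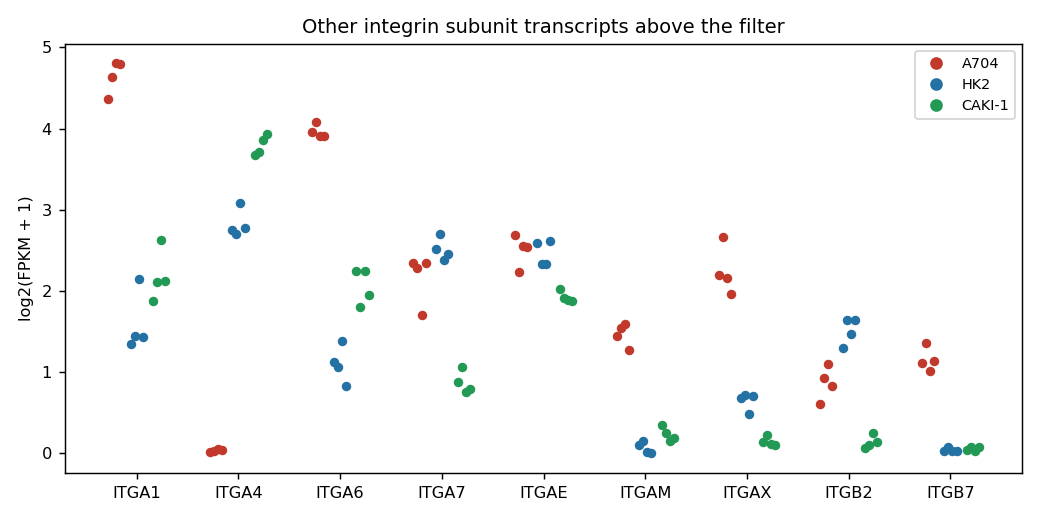
log2(FPKM + 1) of the 9 other integrin subunit transcripts that passed the filter (y axis), with each point 1 library and colour the line. ITGA1 and ITGA6 are highest in A704, and ITGA4 is near 0 in A704 and highest in CAKI-1.

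Of 35 cytoplasmic adaptors and activators, which link integrin tails to actin, 33 were tested. With PTPN14-1, 4 rose and 2 fell, where 2.39% of all genes rose and 3.47% fell, among them APBB1IP, which recruits talin (0.50, SE 0.09, limma adjusted p = 0.00786). APBB1IP was lost without HK2 PTPN14-1 or the CAKI-1 control (adjusted p up to 0.0560). The strongest was the tensin TNS3, which fell by 0.61 (SE 0.08, limma adjusted p = 0.00176) and passed whichever library was left out, but not without all 4 HK2 libraries (adjusted p = 0.0516). TNS3 was also lower with PTPN14-1 than with PTPN14-2 (-0.89, SE 0.08, limma adjusted p = 5.21e-05), 1 of 8 adaptors that differed between these siRNAs, where 11.7% of all genes did (5.52% higher, 6.18% lower); the other 7 were higher with PTPN14-1. With PTPN14-2 against control, the tensin TNS2 fell by 0.45 (SE 0.09, limma adjusted p = 0.0362). No other adaptor of the 33 passed there, where 0.448% of all genes rose and 0.904% fell. This TNS2 call was lost without A704 LATS or any control or PTPN14-2 library (adjusted p up to 0.182) and with low genes kept in the test (0.0957). TNS2 was also 1 of the 2 adaptors that fell with PTPN14-1 against control (-0.42, limma adjusted p = 0.0235). That fall passed in 7 of the 12 fits that left out 1 library and was lost with low genes kept in the test (0.0550). With both PTPN14 siRNAs taken as 1 treatment, TNS2 did not pass (-0.44, limma adjusted p = 0.136). With LATS no adaptor passed. The median log2 change of the 33 was 0.02 with PTPN14-1, -0.02 with PTPN14-2 and 0.14 with LATS. FLNA, ACTN4 and VCL, which crosslink or anchor actin, had the highest adaptor levels, at means of 228, 96.8 and 88.9 FPKM.

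Of 27 extracellular ligands of integrins, 20 were tested; 4 rose with PTPN14-1 and none fell, where 2.39% of all genes rose and 3.47% fell. CYR61 rose most, by 0.68 (limma adjusted p = 0.00670), and passed whichever library was left out (adjusted p up to 0.0441). It was lost without all 4 HK2 libraries (0.0850) or all 4 CAKI-1 libraries (0.108). L1CAM, an adhesion molecule with an RGD motif, rose by 0.50 (SE 0.11, limma adjusted p = 0.0175). The L1CAM call was lost without any of the controls, A704 PTPN14-1 or HK2 PTPN14-1 (adjusted p up to 0.0786) and with low genes kept in the test (0.0555). With PTPN14-2 the metalloprotease ADAM9 rose by 0.43 (SE 0.09, limma adjusted p = 0.0414). It was the 1 ligand of 20 that passed, where 0.448% of all genes rose and 0.904% fell. ADAM9 passed in 3 of the 12 fits that left out a library, those without CAKI-1 LATS, A704 PTPN14-1 or HK2 PTPN14-2 (adjusted p up to 0.204 otherwise). It was also lost with low genes kept in the test (limma adjusted p = 0.121), after quantile normalisation (0.0615) and without trend or robust moderation (0.0552). With LATS no ligand passed. Between the PTPN14 siRNAs 4 ligands were higher with PTPN14-1 and none lower, where 5.52% of all genes were higher and 6.18% lower. THBS1 differed most of these (1.14, limma adjusted p = 0.00167) and passed whichever library was left out (adjusted p up to 0.0114). The most abundant ligands were SPP1 (osteopontin, mean 1967 FPKM), FN1 (fibronectin, 1408) and TGFBI (610). FN1 averaged 13.7 FPKM for A704, 3252 for HK2 and 958 for CAKI-1. The means of ITGA5, the alpha chain of the main fibronectin receptor, had the same line order, as did those of ITGA3 and ITGB3.

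Of 12 hemidesmosome and laminin-binding partners, 11 were tested, and none passed with PTPN14-1, PTPN14-2 or LATS against control. Of 9 genes for TGF-beta ligands and for proteins that bind latent TGF-beta, 7 were tested, and none passed against control with any siRNA. TGFB2, a TGF-beta ligand, was higher with PTPN14-1 than with PTPN14-2 (0.81, SE 0.14, limma adjusted p = 0.00337), with adjusted p up to 0.0227 when a library was left out (0.0886 without all 4 HK2 libraries), and of the opposite sign to ITGB6 and ITGB8 in the same contrast. The median log2 change of the 7 was -0.16 with PTPN14-1 and -0.24 with PTPN14-2.

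Within lines, some members varied together over the 12 libraries. After the mean of each line was taken off log2(FPKM + 1), Pearson's r was 0.77 for ITGB6 with ITGB8, 0.76 for ITGB1 with ITGB5, 0.70 for ITGAV with ITGB8 and -0.71 for ITGB3 with ITGB6. These points share their libraries and the siRNA groups, and r is a description of 12 values. Among all genes tested, RNF11 (r = 0.99) and ALKBH3 (0.97) were the most like ITGB6, GALNT1 (0.96) and CFDP1 (0.96) the most like ITGB8, and ASAP2 (0.98) and HARS (0.94) the most like ITGB3. For the alpha chains the nearest were FRG1B and GCC2 for ITGA2, MYD88 and OASL for ITGA3, TPGS2 and BCAS3 for ITGA5, and SNX13 and PDXDC1 for ITGAV. CRBN and ARHGEF28 were nearest to ITGB1, MINK1 and SCAMP5 to ITGB4, and GANAB and APLP2 to ITGB5, all with r between 0.92 and 0.98.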

How the data were processed

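Gene levels were deposited as FPKM with 2 decimals, a unit read from the values, with 1 column per library. The submitters' processing notes name STAR 2.4.0g1 as aligner and GRCh38.p1 as build, and the labels' protocols name a library kit that keeps strand. No source used here gives the counter, its gene models or its strand setting, so reads of overlapping genes on either strand (exons of ITGA5, ITGAV, ITGB1, ITGB3, ITGB6 and ITGB8 are affected in GENCODE v29) cannot be told apart.

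Values were tested as log2(FPKM + 1), which understates changes of low genes, for 12276 genes with FPKM over 1 in 3 or more libraries. Linear models in limma 3.58.1 under R 4.3.3 were used (statmod 1.5.0; mean-variance trend, robust moderation, Benjamini-Hochberg at 0.05). The main model had line and siRNA (6 residual degrees of freedom); both PTPN14 siRNAs together used line and target (7), and the interaction 9 groups of line and target (3). The fit was tested on simulated data. Libraries of 1 line pair because they are the same cell line; deviations of libraries from the siRNA means correlated at 0.958 or more within each line. No label names separate cultures, so the p-values reflect only how these libraries vary, which may be technical. Fewer cells of a type and less RNA per cell cannot be told apart in bulk RNA.

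The members, lists and tests were chosen with earlier results of these data known. All 10 members are named in every comparison. From each list up to 3 genes with the smallest p in each siRNA comparison and up to 3 with the highest mean were eligible to be named, and for each member the 2 genes with the highest line-centred r. Figures were drawn with matplotlib 3.10.9. Alternatives changed the pseudocount, the filter, the scaling, the moderation, the block and the libraries used.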

Additional observations from a re-analysis of the deposited data

Results flagged for a closer look

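ITGA5, the alpha chain of the fibronectin receptor, had log2 changes of opposite sign between lines. Against the control of the same line, the mean log2 change of both PTPN14 siRNAs was 0.50 for A704, 0.61 for HK2 and -0.29 for CAKI-1. The difference between A704 and CAKI-1 was 0.79 and that between HK2 and CAKI-1 was 0.90. In each pair, both libraries of 1 line moved one way and both of the other line the opposite way. The pairwise differences were not tested one by one. The limma test of the interaction of line with target gave F = 1.88 and an adjusted p of 1 for ITGA5.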

How the results depend on the processing

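The 3 members that differed between PTPN14-1 and PTPN14-2 numbered 2 to 4 under every other filter, pseudocount, scaling and moderation, and 0 with no replicate block, where the line spread enters the error and 0 genes passed in any siRNA comparison. The 2 members called with PTPN14-1 against control numbered 0 with low genes kept, 1 without trend or robust moderation, 0 with no replicate block and 0 to 2 with 1 library or 1 line left out. The 1 member called with PTPN14-2 numbered 0 with low genes kept, 0 with no replicate block and 0 to 1 with 1 library or 1 line left out (0 without any 1 line). Leaving out a line, chosen after seeing the data, gave 2 to 3 members between the PTPN14 siRNAs. Keeping low genes lowered the count of all genes passing from 720 to 355 with PTPN14-1, from 166 to 60 with PTPN14-2 and from 15 to 3 with LATS. With both PTPN14 siRNAs averaged in the 4-siRNA model, 149 genes and 0 members passed in place of 3 genes. The counts of members for the 3 line contrasts stayed within 1.5 times under each alternative run, and those for LATS, both PTPN14 siRNAs and the interaction were 0 throughout. Rescaling to TPM moved the median of all genes by more than 0.1 in 2 contrasts, CAKI-1 against HK2 (from -0.01 to -0.15) and A704 against CAKI-1 (from -0.03 to 0.08). Single members kept their sign wherever they had passed. Depth limits ITGB6 in HK2 most, at about 10.3 to 44.9 reads.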
